A study of Mus musculus with 2 samples.

Results

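The giant filament genes are 7 genes whose messenger RNAs are among the longest of striated muscle or whose proteins tie its filaments together: Ttn, Neb, Nebl, Nrap, Cmya5, Flnc and Igfn1. They were chosen by gene symbol, 7 of 55536 Ensembl genes, and carry 64 of the 141767 annotated transcripts. Their levels were read in total RNA of the gastrocnemius, the large muscle of the calf, from 2 male mice of strain B6CASTF1/J, an F1 cross of C57BL/6 and CAST, at 36 days of age. The labels name no treatment and put both animals in 1 group, so there was no contrast between conditions. The libraries were stranded, ribosomal RNA-reduced, made from 300 ng of RNA and spiked with ERCC standards, and held 36952277 expected counts in replicate 1 and 38754338 in replicate 2. Per the labels the replicates are separate biosamples with separate mouse numbers but the same donor entry, so the spread between them may be partly technical. Levels are in TPM, a relative abundance of transcripts scaled by length, as mean ± SD of the 2 animals (n = 2), and coordinates are mm10. Each library has 2 transcript tables made from the same reads by different quantifications. The first, on which the gene values also rest, came from alignments to the transcriptome, and the second from reads and an index.

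Titin, encoded by Ttn, runs from the Z-disc to the M-band of the sarcomere and acts as a molecular spring whose stiffness is set by alternative splicing of its I-band exons. Forms of heart muscle are known to carry the N2-B element, and those of skeletal muscle the N2-A element with a longer extensible stretch. Nebulin, encoded by Neb, lies along the thin filament of skeletal muscle. Nebulette (Nebl) is its short relative of the cardiac Z-disc, and Nrap is a nebulin-related protein of the myotendinous junction and of myofibril assembly. Filamin C (Flnc) crosslinks actin at the Z-disc and the membrane, and Igfn1 is an immunoglobulin and fibronectin domain protein of skeletal muscle that binds the KY protein. Myospryn, encoded by Cmya5, is a large costamere and Z-disc protein.

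The annotated forms differ at a few coding exons and junctions, shown here from the GENCODE M21 transcript sequences because the form values below turn on them. In titin, the form Ttn-201 (81843 bases, matched by the annotation to the N2-B reference transcript) joins over 121 consecutive exons (chr2:76821116-76903626, 22251 bases) that Ttn-205 (101674 bases) includes. The first pair of lines gives that junction in each form after the same upstream exon. The second pair gives the alternatives after another shared exon: the 6520-base last exon that only Ttn-202 has (chr2:76913944-76920463), and the 2646-base exon of Ttn-201 and Ttn-203 that Ttn-205 lacks (chr2:76907308-76909953). In these 4 lines, all from the minus strand, the capitals mark the downstream exon.
Ttn-201 junction over the skipped exons: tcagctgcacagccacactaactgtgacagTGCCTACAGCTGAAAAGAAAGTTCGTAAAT
Ttn-205 junction into the same exons: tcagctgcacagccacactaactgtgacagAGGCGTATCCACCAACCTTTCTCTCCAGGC
Ttn-202 junction into its last exon: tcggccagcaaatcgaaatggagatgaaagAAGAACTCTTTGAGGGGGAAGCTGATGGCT
Ttn-201 junction into its exon absent from Ttn-205: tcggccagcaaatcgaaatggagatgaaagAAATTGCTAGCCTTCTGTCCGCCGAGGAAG

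Nebulin has alternative 93-base exons near its 3′ end, 1 in Neb-202 (chr2:52153056-52153148) and 1 in Neb-203 (chr2:52156355-52156447), both on the minus strand. They were identical at 81 of 93 positions (87.1%), and their flanks in the mature RNA are the same 20 bases on either side. Nrap has a 105-base exon in Nrap-202 that Nrap-201 lacks (chr19:56374364-56374468, minus strand). Flnc has a 99-base exon in Flnc-201 that Flnc-202 lacks (chr6:29452799-29452897, plus strand), which is known to encode a hinge between filamin repeats. All 4 are coding and keep the reading frame. Capitals mark the alternative exon and lower case its flanks in the spliced form.
Neb exon in Neb-202: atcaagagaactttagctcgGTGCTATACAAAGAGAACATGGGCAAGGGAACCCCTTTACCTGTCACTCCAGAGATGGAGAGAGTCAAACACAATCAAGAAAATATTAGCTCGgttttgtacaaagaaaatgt
Neb exon in Neb-203: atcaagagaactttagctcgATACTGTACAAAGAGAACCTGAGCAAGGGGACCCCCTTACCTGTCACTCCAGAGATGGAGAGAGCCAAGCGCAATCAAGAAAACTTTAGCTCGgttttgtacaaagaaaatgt
Nrap exon in Nrap-202: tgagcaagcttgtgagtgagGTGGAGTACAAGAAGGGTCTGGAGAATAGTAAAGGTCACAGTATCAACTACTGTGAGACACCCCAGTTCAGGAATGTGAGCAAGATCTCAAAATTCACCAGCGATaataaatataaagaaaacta
Flnc exon in Flnc-201: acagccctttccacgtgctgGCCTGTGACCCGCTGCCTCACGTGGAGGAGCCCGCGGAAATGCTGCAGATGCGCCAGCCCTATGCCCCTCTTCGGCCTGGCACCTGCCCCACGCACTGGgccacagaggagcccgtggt

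Titin and nebulin were the most abundant of the 7 messages, and nebulette was barely detected. Ttn (ENSMUSG00000051747.14, chr2:76703980-76982547) was 2347 TPM in replicate 1 and 2255 in replicate 2, and ranked 18 among 22015 nuclear protein-coding genes. Neb (ENSMUSG00000026950.17, chr2:52136647-52378474) was 2060 and 2192 TPM and ranked 20. The animals did not overlap between these genes, but in the second table the values were 2771 and 2578 TPM for Ttn against 2636 and 2590 TPM for Neb, which do overlap. The Ttn to Neb ratio of TPM was 1.14 in replicate 1 and 1.03 in replicate 2.

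Cmya5 (ENSMUSG00000047419.5, chr13:93040713-93144724) was 348 TPM in replicate 1 and 385 in replicate 2. Nrap (ENSMUSG00000049134.15, chr19:56320035-56390037) was 232 and 243 TPM, and Flnc (ENSMUSG00000068699.12, chr6:29433256-29461883) was 169 and 163 TPM. These 3 kept this order in both animals and in both tables, with gaps wider than the spread between the animals. Igfn1 (ENSMUSG00000051985.12, chr1:135953578-136006342) was far lower, with 3.04 TPM in replicate 1 and 8.70 TPM in replicate 2. Nebl (ENSMUSG00000053702.16, chr2:17343909-17731464) was 0.40 and 0.55 TPM, which rests on 36 and 44 expected counts. On these values Neb exceeded Nebl by 5150-fold in replicate 1 and 3986-fold in replicate 2. The deposited credibility intervals of Nebl, 0.486 to 1.54 TPM in replicate 1 and 0.624 to 1.74 in replicate 2, lay above these values. Its posterior means were 0.97 and 1.14 TPM, with which the folds would be smaller.

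**Figure D1:**
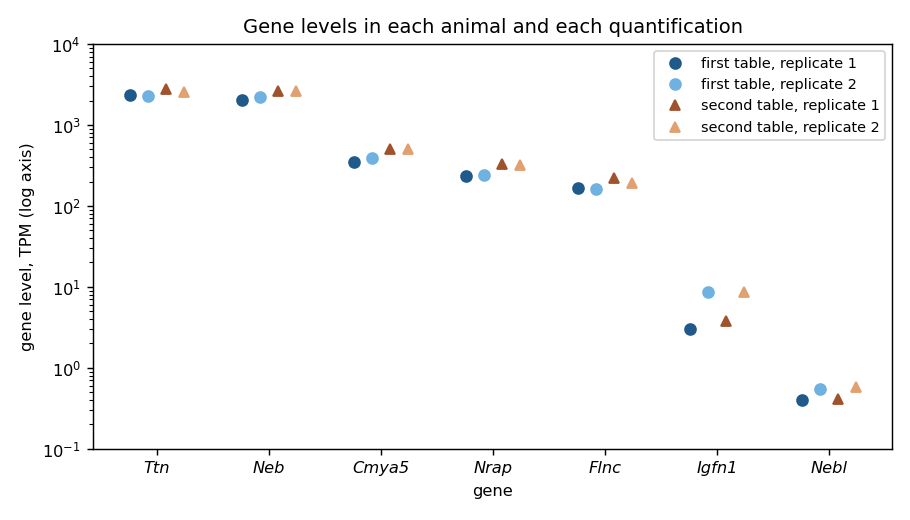
Gene level in TPM on a log axis for the 7 genes, with circles for the first table and triangles for the second, dark for replicate 1 and light for replicate 2. Ttn and Neb sit highest in every case, Igfn1 differs most between the animals, and Nebl stays under 1 TPM.

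The 7 genes weighed far more in reads than in TPM, which divides by length. Together they summed to 5203 ± 61.7 TPM, but took 9.84% ± 0.272 of all expected counts. The share was 10.04% in replicate 1 (Wilson 95% interval 10.03 to 10.05) and 9.65% in replicate 2 (9.64 to 9.66). These intervals cover counting error only and are narrower than the gap between the animals. Titin alone took 8.11% of the counts in replicate 1 and 7.66% in replicate 2, with 2995876 and 2969356 expected counts, the most of any nuclear protein-coding gene. Neb took 1.36% and 1.40% and ranked 6 by counts. So the Ttn to Neb ratio, near 1 in TPM over all forms, was 5.97 and 5.46 in counts. Over forms annotated as coding and complete, Ttn was further ahead, with 1087 and 1098 TPM against 737 and 795 for Neb in the first table.

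Between the animals, 6 of the 7 genes moved little, and Igfn1 stood apart. A call needed 3 things: 50 or more expected counts as the mean of the animals, a ratio of 2-fold or more on the log2(TPM + 0.1) scale, and deposited credibility intervals apart from each other. Of all genes that reached the count minimum, 2.21% met this in either direction and 0.447% were higher in replicate 2. Among the members 6 reached the minimum, all but Nebl, and 1 was called: Igfn1, higher in replicate 2 by 1.49 on the log2 scale, or 2.86-fold. Its intervals were 2.59 to 3.43 TPM in replicate 1 and 7.85 to 9.28 TPM in replicate 2, on 566 and 1544 expected counts. In the second table Igfn1 was 3.80 and 8.57 TPM. With 1 animal on each side this has no replicate check and no p-value.

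The log2 ratios of replicate 2 over replicate 1 were -0.06 for Ttn, 0.09 for Neb, 0.06 for Nrap, 0.15 for Cmya5 and -0.05 for Flnc. Nebl, too low for the count minimum, was at 0.38. The members' median was 0.09, against 0.01 over the 11349 genes that averaged 1 TPM or more, and 5 of the 7 genes were nominally higher in replicate 2. In CPM the ratio of Nrap was -0.00, and in the second table those of Neb and Nrap were -0.03 and -0.05, so the directions of these small differences depended on the scale. Markers of other cell types also differed between these libraries. The 4 fibroblast markers summed to 1350 TPM in replicate 1 and 669 in replicate 2, and the 4 Schwann cell markers to 342 and 74.6 TPM. Their part in the Igfn1 difference was not tested, and in bulk RNA fewer cells of a type and less RNA per cell cannot be told apart.

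Most reads of titin fell on the full-length forms, although most of its TPM did not. The 4 forms of over 80 kb (Ttn-201, Ttn-203, Ttn-204 and Ttn-205) took 91.9% ± 0.102 of the expected counts of the gene, but summed to 925 ± 1.03 TPM of its 2301 ± 65.5 TPM. In the second table they summed to 1278 TPM in replicate 1 and 1178 TPM in replicate 2. Adding the complete coding Ttn-202, complete coding forms held 94.9% of the counts and 47.5% ± 1.68 of the TPM. Over 9538 nuclear protein-coding genes with several forms, complete coding forms held a median of 82.6% of TPM.

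Ttn-205 was the leading full-length form in both animals and both tables. It was 554 TPM in replicate 1 and 504 in replicate 2, or 57.2% ± 3.78 of the long-form TPM, and 663 and 551 TPM (49.3% ± 3.65) in the second table. Ttn-201, the form with the N2-B exon, was 337 and 390 TPM, or 39.3% ± 4.08 of the long-form TPM. In the second table it was lower, at 215 and 341 TPM (22.9% ± 8.57). Ttn-204 (100404 bases), which has the same coding length of 100401 bases as Ttn-205, moved the other way, from 3.30% of the long forms in the first table to 24.0% in the second. Ttn-203, the longest model at 106824 bases and described here although its share was low, was 3.15 and 0.02 TPM in the first table and 77.5 and 18.1 TPM in the second.

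These splits rest on little sequence of their own. Of the 100-base read positions along each form, Ttn-205 had 86 of 101575 found in no other form, Ttn-204 had 103 of 100305 and Ttn-201 had 96 of 81744. Ttn-201 and Ttn-205 do differ from each other by the 121 exons and the 2646-base exon, but other forms share these. Ttn-205 and Ttn-204 also held 144 positions whose sequence recurs within the form. By contrast Ttn-202 had 6518 of 16792 positions to itself, nearly all from its last exon. Ttn-202, which ends in an early alternative exon in the manner of the novex-3 form, was 162 TPM in replicate 1 and 174 in replicate 2. It was 113 and 112 TPM in the second table, so the animals lay close together within each table and the tables further apart.

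The choice of exons in the I-band was summed up as an inclusion percent. This is the TPM of forms that hold every exon in question over that of these forms and of the spanning forms that hold none. It rests on TPM assigned to whole annotated forms. Reads over the junctions were not counted, so the splice choice itself was not checked. For the 121 exons that Ttn-201 skips, inclusion was 63.4% in replicate 1 and 57.8% in replicate 2 in the first table, and 82.1% and 70.6% in the second. Ttn-203 and Ttn-211 hold only some of these exons and are left out of that measure. Incomplete models that lie at least partly in this stretch are left out too, among them Ttn-208, Ttn-209, Ttn-212 and Ttn-218. The measure would be higher with them. Ttn-208 was 115 and 1.75 TPM and Ttn-218 was 10.4 and 150 TPM in the first table, so they also bear on the difference between the animals. Over all 4 forms with a junction into these exons from the exon before them, against Ttn-201, the share was 67.7% and 60.03% in the first table and 83.8% and 71.8% in the second. For the 2646-base exon of the N2-B form, inclusion was 32.6% and 40.0% in the first table and 22.1% and 29.7% in the second. At both places replicate 2 was on the side of Ttn-201 in both tables. Both percents turn largely on the TPM given to Ttn-201 itself, so the places are not separate observations. In each animal the tables differed by more than the animals did within a table. A 138-base exon near the start of the gene (chr2:76965777-76965914), absent from Ttn-201 and Ttn-202, was included in 71.3% and 68.4% of spanning TPM, and in 81.8% and 73.5% in the second table. Among the including forms was Ttn-215, with 651 of the 1240 TPM in replicate 1, a short model with no read position of its own.

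The share given to the N2-B form was read beside markers of heart muscle. The 8 heart markers summed to 13.9 TPM in replicate 1 and 21.1 TPM in replicate 2, against 89399 and 93551 TPM for the 6 skeletal fibre markers. Nppa, Nppb and Myl7, an atrial hormone, a ventricular hormone and the atrial light chain, were listed at 0 in both animals. The other heart markers reached at most 16.4 TPM, for Myh6 in replicate 2. Ttn-201 was 337 and 390 TPM, and 215 and 341 TPM in the second table. Levels of different genes do not measure a share of heart tissue, and its part in the Ttn-201 level was not tested.

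The short titin models took TPM out of proportion to their reads, and several were placed differently in the animals. Ttn-215, a 2159-base model of 12 exons at the 5′ end whose annotation is incomplete, was the leading titin form of the first table, at 651 and 685 TPM. It held 29.1% of titin TPM but 1.46% of titin counts, and none of its 2060 read positions was its own. In the second table it was 404 and 416 TPM, under Ttn-205. Ttn-212 (609 bases) was 107 and 94.3 TPM in the first table and 263 and 336 TPM in the second, and Ttn-209 (3162 bases) was 62.5 and 115 TPM against 143 and 191 TPM. The second table took more bases off each length before scaling, a median of 335 and 340 over long forms in replicates 1 and 2. Short forms therefore read higher there at equal counts. Ttn-212 had 1729 and 1523 expected counts in the first table, and 1848 and 2480 estimated counts in the second.

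Ttn-208 and Ttn-218 showed the widest gaps among the named titin forms. Ttn-208 (549 bases, chr2:76844233-76847170) was 115 TPM in replicate 1 and 1.75 in replicate 2, and 320 and 7.35 TPM in the second table. Ttn-218 (10229 bases, chr2:76814724-76889925) ran the other way, with 10.4 and 150 TPM, and 82.7 and 237 TPM in the second table. Both are incomplete models. Ttn-208 lies inside the stretch of exons that Ttn-201 skips and has no read position of its own, and Ttn-218 reaches from that stretch past its 3′ end. The summed TPM of the 15 incomplete titin models differed far less, at 1220 in replicate 1 and 1107 in replicate 2. The other 16 titin forms reached at most 119 TPM in any animal of the first table, and 2 were listed at 0 throughout.

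**Figure D2:**
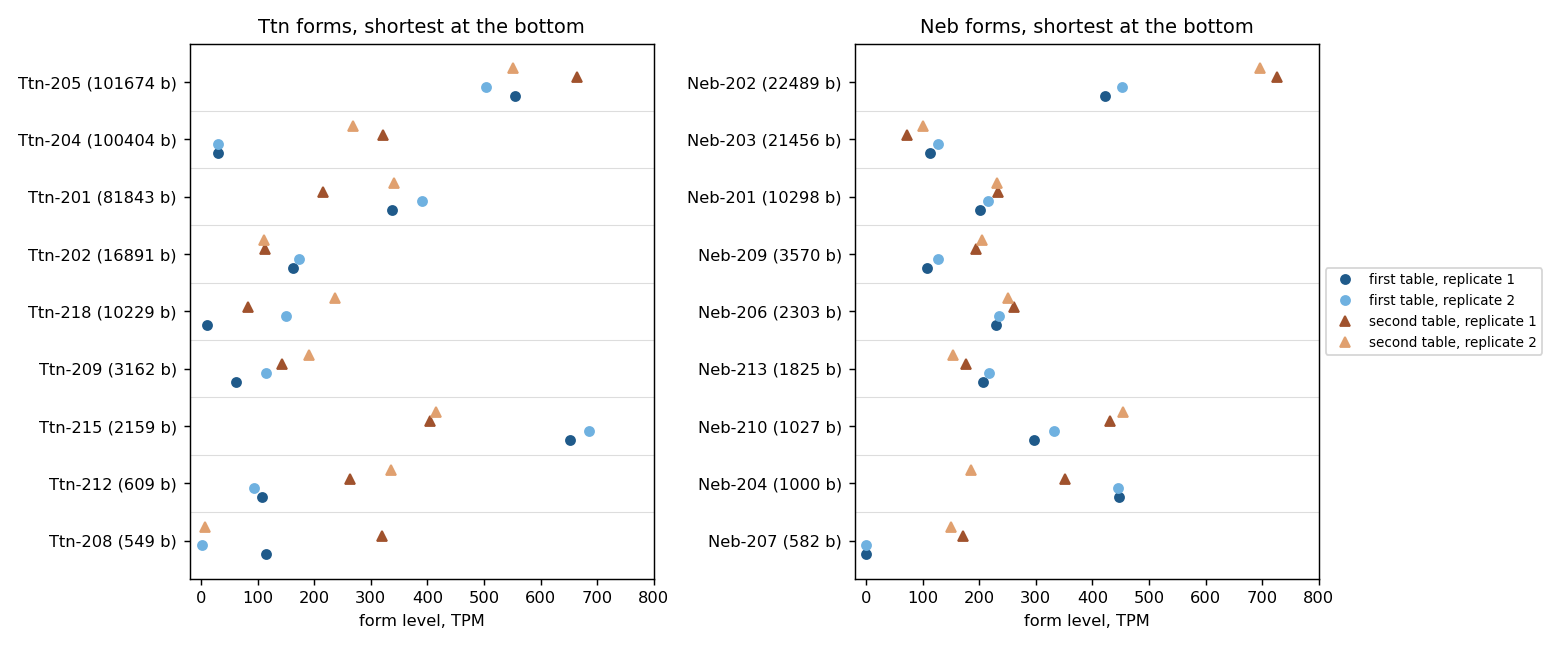
TPM of the titin forms (left) and nebulin forms (right) that hold at least 5% of their gene in either table, ordered by length, with circles for the first table and triangles for the second, dark for replicate 1 and light for replicate 2. Ttn-208 lies at 115 and 320 TPM in replicate 1 but under 10 TPM in replicate 2, while Neb-202 keeps its animals close together and moves between tables.

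Nebulin was likewise spread over full-length and partial models. Neb-202, the longest form (22489 bases, 157 exons), was 423 TPM in replicate 1 and 452 in replicate 2, and 726 and 697 TPM in the second table. It took 59.3% of nebulin counts and 20.6% of nebulin TPM. Neb-203 (21456 bases) was 113 and 128 TPM, and Neb-201 (10298 bases), which lacks the 5′ part of the gene, was 201.0 and 216 TPM. Complete coding forms held 36.0% ± 0.371 of nebulin TPM and 87.7% of its counts.

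In the mean of the first table the leading nebulin model was Neb-204, a noncoding processed transcript of 1000 bases, at 446 and 445 TPM, although in replicate 2 Neb-202 was ahead of it. It held 2.43% of nebulin counts, and was behind Neb-202 in both animals of the second table, at 351 and 185 TPM. Neb-210, an incomplete 1027-base model, was 297 and 333 TPM, and 431 and 455 TPM in the second table. The other partial models named by their share, Neb-206, Neb-213 and Neb-209, lay between 107 and 262 TPM in every animal and table. Neb-207 was listed at 0 in the first table and was 171 and 150 TPM in the second.

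Nebulin is known for a pair of exons near its 3′ end that are used in turn. Forms with the exon of Neb-202 (sequence above) held 45.7% of spanning TPM in replicate 1 and 45.6% in replicate 2. Forms with the exon of Neb-203 held 31.4% and 32.3%. In the second table the shares were 56.4% and 54.5% for the former and 23.5% and 25.9% for the latter. The remainder fell on Neb-206, an incomplete model that has neither. In both animals and both tables the forms with the exon of Neb-202 held the larger share.

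A block of 4 exons (729 bases, chr2:52222737-52226646) that Neb-202 has and Neb-203 lacks was included in 82.5% and 82.0% of spanning TPM, and in 92.7% and 89.9% in the second table. A further block of 4 exons of the same length (chr2:52219090-52221843), present in Neb-201, was included in 27.3% and 27.1%, and in 22.7% and 22.5% in the second table. The incomplete Neb-209 ends inside this further block and is left out of its measure, which would be higher with it. Neb-209 was 107 and 128 TPM, and 195 and 205 TPM in the second table. At each nebulin exon measured, the animals lay closer together than the tables did.

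**Figure D3:**
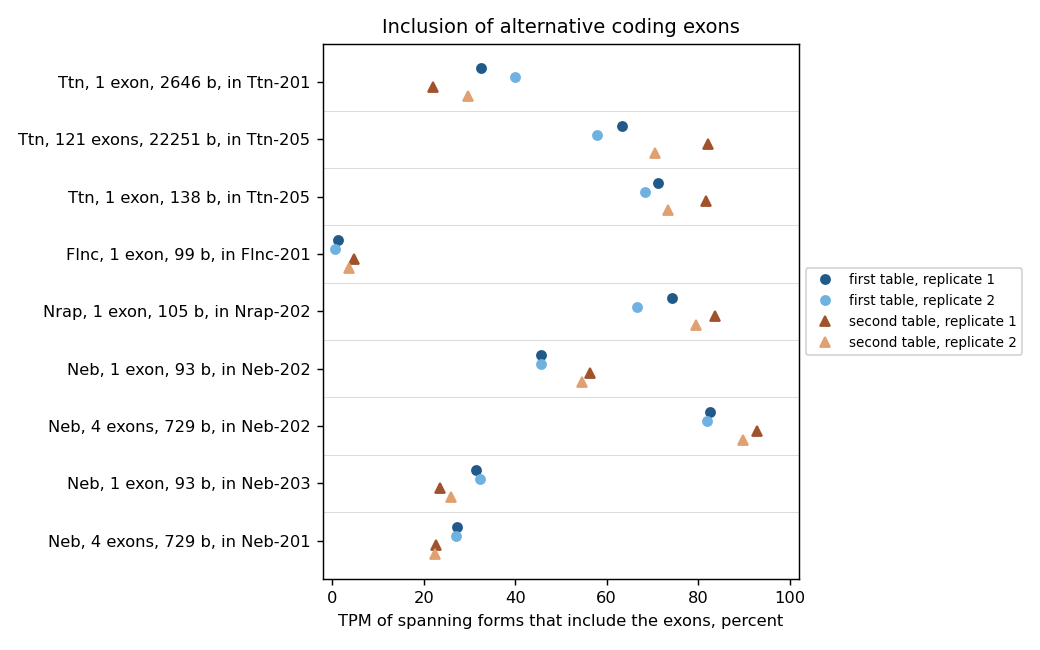
Percent of the TPM of spanning forms that include each alternative coding exon or block, with circles for the first table and triangles for the second, dark for replicate 1 and light for replicate 2. Inclusion runs from about 1% for the Flnc exon to over 80% for the 729-base nebulin block of Neb-202, and the nebulin points of the animals nearly coincide within a table.

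Among the nebulin relatives, Nrap was carried by complete coding forms for 99.9% of its TPM. Nrap-202 (5501 bases, 42 exons), with the 105-base exon, was 171 TPM in replicate 1 and 161 in replicate 2. Nrap-201, without it, was 57.6 and 76.6 TPM. The exon was included in 74.2% and 66.7% of spanning TPM, and in 83.6% and 79.4% in the second table, so replicate 1 was higher in both tables. Skipping of this exon is known from heart muscle. Nrap-201 had 0 and Nrap-202 had 2 read positions found in no other form, since other rare forms share each exon choice. Nrap-205 was 0.86 and 2.95 TPM, and 14.9 and 19.5 TPM in the second table.

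Most Nebl reads were assigned to its short LIM form, and none to the full form of cardiac nebulette. Nebl-201, which encodes the short LIM and SH3 domain protein of this gene in 810 coding bases, took 27.9 expected counts in replicate 1 and 31.2 in replicate 2, or 0.16 and 0.17 TPM. Nebl-202, the long nebulette of 28 exons and 3042 coding bases, was listed at 0 in both animals and both tables, and is described although its share falls under 5%. Its 28 exons include 22 consecutive exons (2265 bases, chr2:17375216-17460356) that Nebl-201 lacks. Nebl-210, Nebl-211 and Nebl-212 lie at least partly in that stretch. They took 1.0 and 1.39, 2.0 and 4.61, and 0 and 2.0 expected counts in replicates 1 and 2. Nebl-213, within it, took 1 count in replicate 2 of the second table. The 0 of Nebl-202 thus does not show that the stretch had no reads. A count of 0 allows up to 3 reads, or 0.0812 CPM in replicate 1 and 0.0774 CPM in replicate 2. The noncoding Nebl-209 was 0.15 and 0.14 TPM on 1.12 and 1.06 expected counts. The noncoding Nebl-205 and Nebl-211, the incomplete Nebl-210 and the noncoding Nebl-212 each had under 5 expected counts per animal, so shares within this gene carry little weight.

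Filamin C was mostly of the form without the hinge exon. This form, Flnc-202, was 144 TPM in each animal, or 86.6% ± 1.95 of the gene, and 195 and 179 TPM in the second table. Flnc-201, with the exon, was 1.89 TPM in replicate 1 and 0.82 in replicate 2, under the 5% share used for naming and described here because the exon sets it apart. The exon was included in 1.30% and 0.568% of spanning TPM, and in 4.88% and 3.71% in the second table. Inclusion was low in every case, and its size differed more between tables than between animals. Flnc-203, a retained-intron model of 1151 bases, was 23.1 and 18.8 TPM in the first table (12.6% ± 1.52 of the gene, and 1.69% of its counts) and 17.6 and 5.199 TPM in the second.

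Cmya5 has a single annotated form, Cmya5-201 (11850 bases, 13 exons, 11028 coding bases), so its gene and form levels are the same. It took 129238 expected counts in replicate 1 and 143416 in replicate 2. Of its 11751 read positions, 2155 also occur in another annotated gene on either strand. The antisense genes that overlap Cmya5, Gm4814 and A630019I02Rik, were at most 0.21 TPM. No gene that overlaps any of the 7 loci exceeded that level.

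In the first table the Igfn1 forms kept similar shares while the gene's level differed. Igfn1-203 (8989 bases, 8547 coding) was 1.61 TPM in replicate 1 and 4.26 in replicate 2, or 51.0% ± 2.82 of the gene. Igfn1-201, an incomplete model, was 0.64 and 1.82 TPM (20.99% ± 0.0941). Igfn1-202, annotated for nonsense-mediated decay, was 0.79 and 2.62 TPM in the first table, but 0.449 TPM in replicate 1 of the second, where replicate 2 was listed at 0. Each of the 3 forms was thus higher in replicate 2 in the first table, and Igfn1-203, with 4943 of 8890 read positions of its own, was also higher in the second, at 2.78 and 7.29 TPM.

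**Figure D4:**
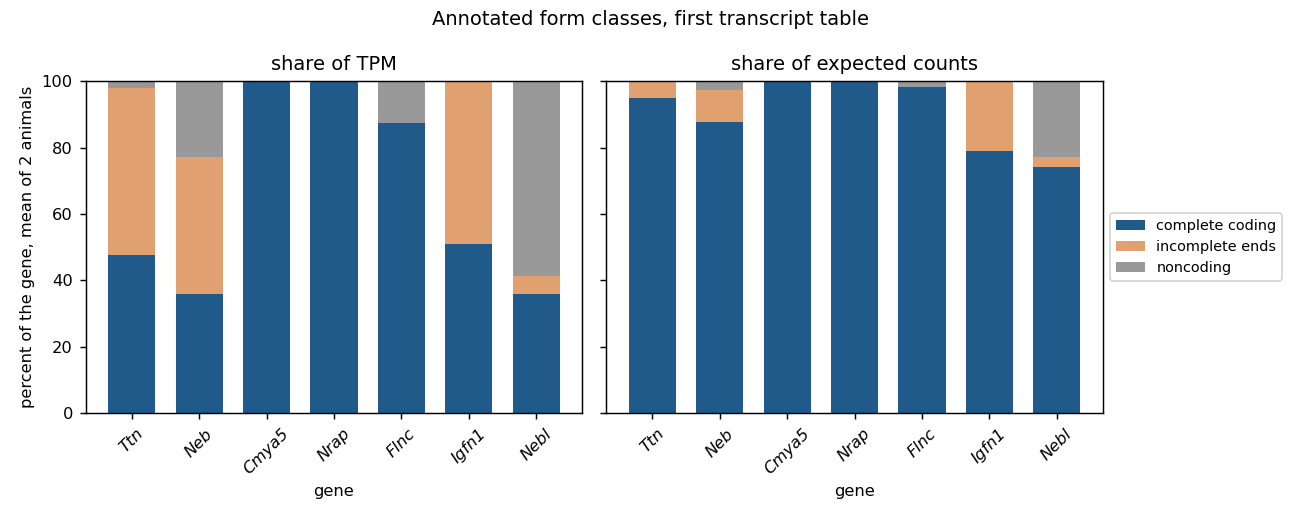
Percent of each gene's TPM (left) and of its expected counts (right) on complete coding forms, forms with incomplete ends (which take in the decay forms Igfn1-202 and Nrap-206), and other noncoding forms, as the mean of 2 animals in the first table. For Ttn and Neb the complete coding forms hold 47.5% and 36.0% of TPM but 94.9% and 87.7% of counts.

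By the first table, 13 of the 41 member forms with a mean of at least 1 TPM were at least 2-fold apart on the log2(TPM + 0.1) scale, where 10.4% of all such transcripts were. These were 8 of 20 titin forms, 3 of 3 Igfn1 forms and 0 of 10 nebulin forms, with 1 form each of Nrap and Flnc. By the second table, 9 of 43 were that far apart, against 15.7% of all transcripts, and 6 of 20 titin forms were among them. By class, 9 of 17 forms with incomplete ends were at least 2-fold apart in the first table, 4 of 16 complete coding forms and 0 of 8 other noncoding forms, where Igfn1-202, a decay form with an incomplete end, counts as incomplete. In the second table it was 6 of 17, 2 of 16 and 1 of 10. The median absolute log2 ratio was 1.21 for incomplete and 0.14 for complete coding forms in the first table, but 0.42 and 0.27 in the second, so the classes lay closer there.

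**Figure D5:**
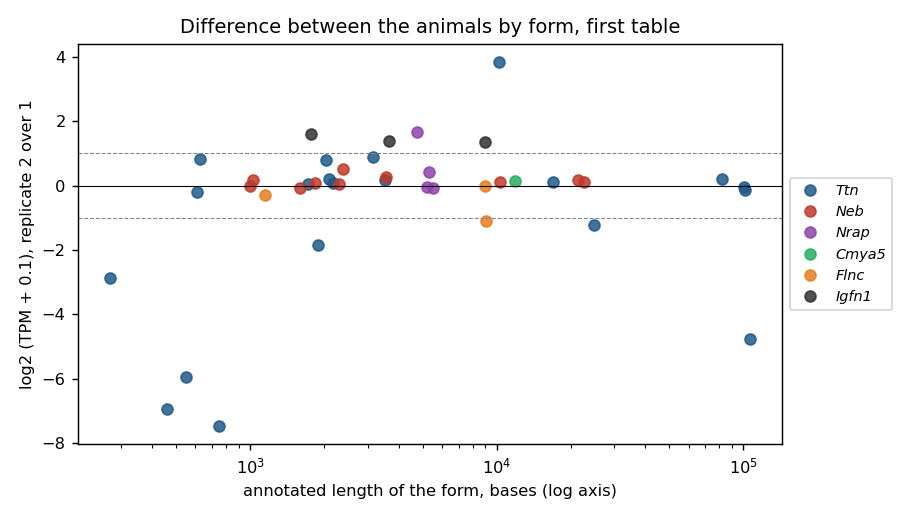
Log2 ratio of replicate 2 over replicate 1 for the 41 member forms with a mean of at least 1 TPM in the first table, against annotated length on a log axis, coloured by gene, with dashed lines at 2-fold. Titin forms under 1000 bases reach -7.47 on the log2 scale, while nebulin forms stay within 1 of 0.

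Gene and form levels were also set side by side between the quantifications. The second table read higher, with a median log2 ratio over the first of 0.59 in replicate 1 and 0.47 in replicate 2. Relative to this median 0 of the 6 members with at least 1 TPM were over 2-fold apart in both animals, where 5.05% of all genes were. Without removing that shift, and on the mean of the animals, 11 of the 36 member forms with at least 1 TPM in both tables were at least 2-fold apart, against 19.4% of all transcripts. The lengths used for scaling, which matter most for short forms, also enter these ratios. The extremes were Ttn-221 at -3.70 and Ttn-203 at 4.83 on the log2 scale, named after their values were seen.

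The leading form was the same in both tables for 4 of the 6 members with several forms: Nebl, Nrap, Flnc and Igfn1. Of the 5 that reached the level used for the background it was 3, and over all genes 75.7% kept their leading form. Ttn and Neb were the exceptions, through Ttn-215 and Neb-204. Among complete coding forms alone, all 5 members with several such forms had the same leader in both tables: Ttn-205, Neb-202, Nebl-201, Nrap-202 and Flnc-202.

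The lists of relatives and partners of these genes described here held 1 called gene beside Igfn1. Over all genes tested 2.21% were called, so lists this short would hold few calls in any case. In the nebulin family of 4, Neb and Nrap led and Nebl was the lowest, and 0 were called. Flnc, at 166 ± 3.89 TPM, was well above its widely expressed relative Flna, at 19.11 ± 4.398 TPM. Of 15 immunoglobulin and fibronectin repeat proteins, Ttn led with Mybpc2, the fast myosin-binding protein C, at 2050 ± 86.1 TPM. The cardiac Mybpc3 was listed at 0 in both animals. In this list 1 of 14 tested was called, which was Igfn1 itself.

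Of 16 titin partners, Actn3, the fast-fibre alpha-actinin, was 3500 ± 50.6 TPM and Tcap, which caps titin at the Z-disc, was 808 TPM in replicate 1 and 1334 in replicate 2. Fhl2, a LIM protein of heart, was the lowest at 1.05 ± 0.262 TPM, and 0 of 15 tested were called. Of 14 nebulin and thin filament partners, the intermediate filament protein desmin (Des) was 743 ± 4.97 TPM and Xirp2, an actin-binding Xin repeat protein, was 353 ± 48.0 TPM. Kbtbd13, a ligase adaptor mutated in nemaline myopathy, was the lowest at 2.78 ± 0.0919 TPM, and 0 of 14 were called.

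Of 15 partners of filamin C, Igfn1 and Cmya5, Myoz1 and Ldb3, both Z-disc proteins, were 1235 ± 63.3 and 862 ± 163 TPM, and the epithelial keratin Krt18 was 0.035 ± 0.021 TPM. In this list 1 of 14 tested was called, Csrp3, the muscle LIM protein, at 56.5 TPM in replicate 1 and 23.4 TPM in replicate 2, named after its values were seen. All 10 regulators of titin and nebulin splicing exceeded 1 TPM. Mbnl1 and Mbnl2 led at 163 ± 11.7 and 123 ± 7.83 TPM, Nova1 was the lowest at 1.90 ± 0.460 TPM, and 0 of 10 were called. Rbm20, known for its part in the skipping of titin I-band exons in heart and singled out for that role, was 22.8 TPM in replicate 1 and 29.9 in replicate 2. For the 6 lists described here, the median log2 ratios of replicate 2 over replicate 1 were 0.06 for the nebulin family, 0.21 for the immunoglobulin and fibronectin repeat proteins and 0.18 for the titin partners. They were -0.01 for the nebulin and thin filament partners, 0.09 for the partners of filamin C, Igfn1 and Cmya5 and 0.14 for the splicing regulators, beside the 0.01 over all genes at that level. The first 2 lists hold members of the 7 genes themselves.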

How the data were processed

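Total RNA-seq of gastrocnemius from 2 animals was used, 1 library each. Gene values and the first transcript table derive from alignments to the mm10 transcriptome with GENCODE M21, and the second from reads and an index, per the file headers and notes. No source used here names the aligner or quantifiers. The authors deposited expected counts (estimated reads, not whole numbers), TPM, FPKM, the percent of a gene carried by each form, and scores that bound a credibility interval of TPM. FPKM and the deposited percent served only as checks.

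From these were computed shares, inclusion percents, log2 ratios with a pseudocount of 0.1 TPM, and 100-base read positions, with Python 3.11.15, pandas 2.3.3 and numpy 2.4.6. Read positions were compared on the M21 transcript sequences, and those shared with other genes were sought on either strand. A chi-square of 35.1 per degree of freedom over 14978 genes showed libraries further apart than sampling noise. With 1 group of 2, no p-value can be had. The members, gene lists and criteria were chosen with earlier results of these data known. Forms were named at a mean share of at least 5% of their gene's TPM in either table, and of each list the 2 highest and the lowest gene. Alternatives covered the pseudocount, count filter, unit, table, form class and each replicate left out. Form names and types follow M21, and protein sequences were not used here. Results of 1 gene list are not reported here.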

Additional observations from a re-analysis of the deposited data

How the results depend on the processing

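The summed level of the 7 genes, 5203 TPM, was 6335 TPM in the second table, 5100 TPM from the posterior means, 12625 TPM when rescaled over nuclear protein-coding genes and 2610 TPM over complete coding forms alone, the last chosen after seeing the data. Leaving out each animal gave 5160 to 5247 TPM. The share of counts, 9.84%, was 13.5% over nuclear protein-coding genes, 11.0% in the second table, and 9.65% to 10.04% with each animal left out. The members' median log2 ratio was 0.09, and between -0.03 and 0.09 over the alternatives. Among the members Igfn1 alone was called under a count minimum of 200, no count filter and a pseudocount of 1. Of all genes tested, 1.71%, 1.66% and 1.07% were called under these settings. Igfn1 was also the only member called in the second table, but without credibility intervals of that table, and no share over all genes is given there. The count of members with the same leading form in both tables, 4, was 6 by counts, 5 among coding forms and 4 to 5 with each animal left out. No member was over 2-fold apart between the quantifications under any alternative tried. Of the settings for gene levels, 22 moved the value by more than the spread between the animals and 27 did not. For form shares 73 did and 111 did not, a spread that 2 animals measure poorly. The settings for gene levels include changes of unit, FPKM and the rescaling over nuclear protein-coding genes. These shift a level by construction, so the count is no measure of robustness. Nebl rests on 36 and 44 expected counts, and the split among the long titin forms on few read positions of their own. The inclusion of the long titin exon block, 60.6%, was 63.9% over all forms with a junction into it, chosen after seeing the data, and 76.4% in the second table. No paired analysis was possible because there is only 1 group.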
